A study of Mus musculus with 4 samples.

Results

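The meiotic recombination genes Spo11, Dmc1, Psmc3ip, Mnd1, Msh4, Msh5, Mlh3 and Prdm9 were followed in RNA-seq of mouse testis. These 8 genes were chosen by name, each for a known role in the formation or repair of meiotic DNA breaks, and not by their values. Exon sense counts were examined for 7 of the 8, out of 12415 genes with exon sense counts in the table. Counts of Prdm9 were not analysed here, and only its annotated sequence was searched. Intron sense counts were examined for 6 of the genes, out of 6616.

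The study asked how the testicular transcriptome changes without NEF-sp, a nuclear exoribonuclease of the testis. The mice were on the C57Bl/6J background and adult, at postnatal day 60. Total testicular RNA was taken from Nef-sp -/- mice, in which both alleles carry an out-of-frame deletion of 23 bp, and from Nef-sp +/- mice as the controls. The controls thus carry the same deletion on 1 allele, and no wild-type library was compared. The allele was made by injection at the one-cell stage, and the line goes back to founders mated with wild-type mice. There were 2 libraries per genotype. The labels do not say how many animals each library holds, so the p-values measure the spread between libraries, which may be technical.

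Meiotic recombination begins with programmed double-strand breaks in the DNA of spermatocytes. Strands from the broken ends then search for and invade the homologous chromosome, and some of the joined intermediates become crossovers that hold the homologs together until they are segregated. SPO11 makes the breaks, and PRDM9 is the histone methyltransferase whose zinc fingers place them at hotspots. DMC1 is the meiosis-specific recombinase, which is assisted by the heterodimer of PSMC3IP (HOP2) and MND1. MSH4 and MSH5 form a clamp around joined DNA molecules, and MLH3 is an endonuclease subunit that works in crossover formation.

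The libraries held between 20659865 and 34442517 reads, of which 15815159 to 26618821 were exon sense reads. The deepest was Nef-sp +/- replicate 2, and the other 3 were of like depth. Exon sense reads of 2610020H08Rik, the gene of Nef-sp, checked the labels. After normalization the controls had 1843 and 1693 reads of it and the Nef-sp -/- libraries 407 and 497, and its log2 fold change was −1.97 (standard error 0.0921). Among 12 spermatocyte markers, 10 were examined, and each had reads in every library. Their summed level was 2942 to 3055 CPM (counts scaled to the effective exon sense total of each library) in the Nef-sp +/- controls and 2916 to 3041 in Nef-sp -/-. Whole testis holds germ cells of every stage together with somatic cells, so fewer cells of a type and less RNA per cell cannot be told apart.

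The reads were up to 50 bases long and only perfect genome matches were kept, so the sequence of each gene sets which reads could be counted. Mnd1 (ENSMUSG00000033752) stands apart in this respect. In the mouse build mm9 it lies on the minus strand at chr3:83891856-83959708 and has 8 exons with a median length of 95 bases. The pseudogene Gm3833 (ENSMUSG00000089686), on the plus strand at chr14:10718469-10719282, aligned to 814 of the 874 bases of the Mnd1 transcript and was 98.3% identical over them. The sequences of exons 2 and 3 of Mnd1, both within the coding region, are shown with the corresponding stretch of chromosome 14, because the junction between them is where a spliced and an unspliced match differ. Capitals mark the 10 bases on each side of the exon junction.
Mnd1 exon 2, chr3:83945621-83945686, minus strand: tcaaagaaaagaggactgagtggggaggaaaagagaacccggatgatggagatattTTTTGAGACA
Mnd1 exon 3, chr3:83942091-83942148, minus strand: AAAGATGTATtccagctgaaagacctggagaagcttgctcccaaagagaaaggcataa
Copy of exons 2 and 3, chr14:10718544-10718667, plus strand: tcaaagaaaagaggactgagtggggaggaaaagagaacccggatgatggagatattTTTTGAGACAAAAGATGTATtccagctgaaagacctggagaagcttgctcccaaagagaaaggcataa

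All 124 bases of both exons were identical in the copy, where they are continuous. A read within these bases and across the junction therefore matches chromosome 14 without a gap, whereas it matches Mnd1 only when split over an intron. Exon 4 shows where the copy can be distinguished. Of its 149 bases, 137 were identical in the copy, 2 differed and 10 were absent. Capitals mark the bases without an identical partner, and other alignments of the missing bases score equally.
Mnd1 exon 4, chr3:83937940-83938088, minus strand: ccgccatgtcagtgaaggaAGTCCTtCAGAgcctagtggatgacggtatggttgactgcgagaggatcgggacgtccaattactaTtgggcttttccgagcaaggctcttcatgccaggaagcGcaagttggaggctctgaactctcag
Copy of exon 4, chr14:10718668-10718806, plus strand: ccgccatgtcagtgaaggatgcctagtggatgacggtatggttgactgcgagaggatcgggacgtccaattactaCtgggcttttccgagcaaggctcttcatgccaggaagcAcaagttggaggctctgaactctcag

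Over all exons of Mnd1, 183 of 486 windows of 50 bases, or 37.7%, had another perfect match in the genome. They formed 8 stretches of 50 to 119 bases. Of the 825 windows along the spliced transcript, 339 crossed an exon junction, and 154 of these were present in the copy. The sources used here do not state how reads with several matches were assigned, or whether reads across junctions were counted. The copy lies inside an intron of Fhit, on the opposite strand. Intron antisense reads of Fhit numbered 18 and 32 in the Nef-sp +/- controls and 21 and 36 in Nef-sp -/-. How many of them came from the copy was not tested. The Mnd1 counts below are therefore uncertain in level.

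Such windows were fewer in the other measured genes. Spo11, Dmc1 and Psmc3ip had no exonic window with another perfect match. Msh5 had 3 such windows of 4366, and Mlh3 had 2 of 4930. Msh4 had 162 of 3018, which formed 1 stretch of 211 bases at chr3:153542808-153543018, and none was in its longest coding transcript. Prdm9 had 873 of 3756, or 23.2%. In the coding transcripts, the windows that lie within 1 exon ranged from 58.9% for Mnd1 and 60.8% for Msh5 to 90.8% for Mlh3, whose longest exon holds most of its sequence.

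**Figure D1:**
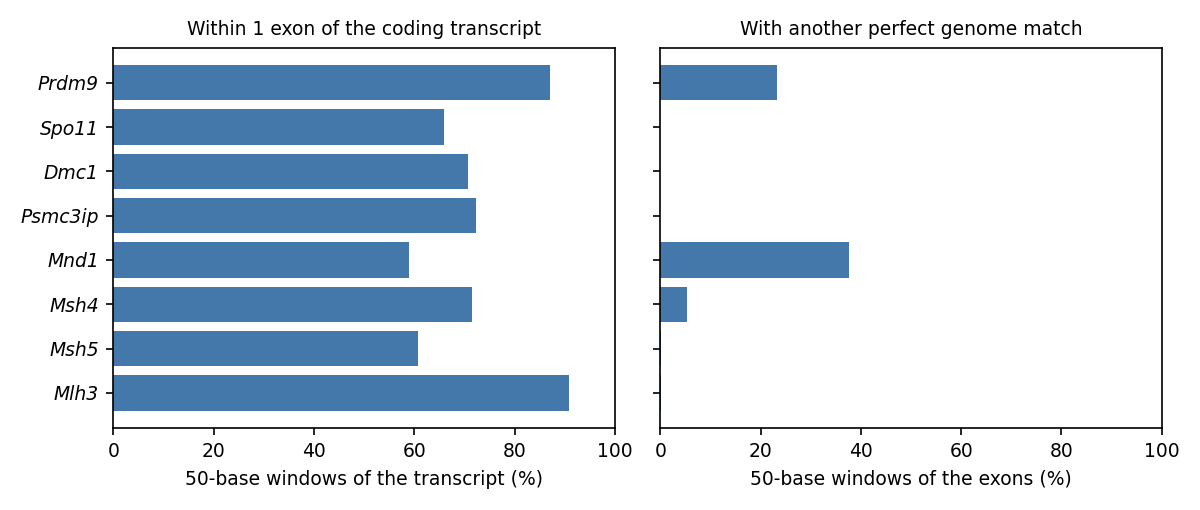
For each gene, the left bars give the percentage of 50-base windows of the longest coding transcript that lie within 1 exon, and the right bars the percentage of exonic windows with another perfect match in mm9. Mnd1 has the lowest bar on the left (58.9%) and the highest on the right (37.7%), and bars of 0 are those of Spo11, Dmc1 and Psmc3ip.

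No recombination gene passed the test for a difference between the genotypes. In the quasi-likelihood test of edgeR, adjusted by Benjamini-Hochberg over 10728 exon sense genes, 0 of 7 genes were called at an adjusted p of 0.05. The background of such calls was 0.00932% of the genes tested, which is 1 gene, 2610020H08Rik itself. An unadjusted p below 0.05 was seen for 0 of 7, beside 4.8% of all genes tested. DESeq2 also called 0 of 7. All 7 passed the expression filter of the test. Their log2 fold changes, as Nef-sp -/- over Nef-sp +/-, ranged from −0.19 to 0.07. Their median was −0.06, beside −0.00 for all genes tested. A negative value was seen in 6 of the 7, against a background of 50.1%. Both Nef-sp -/- libraries lay below both Nef-sp +/- libraries for 3 of the 7, Dmc1, Msh4 and Msh5, against a background of 18.1%. The genes were measured in the same 4 libraries, so their signs are not independent of each other, and no test was made on these counts.

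**Figure D2:**
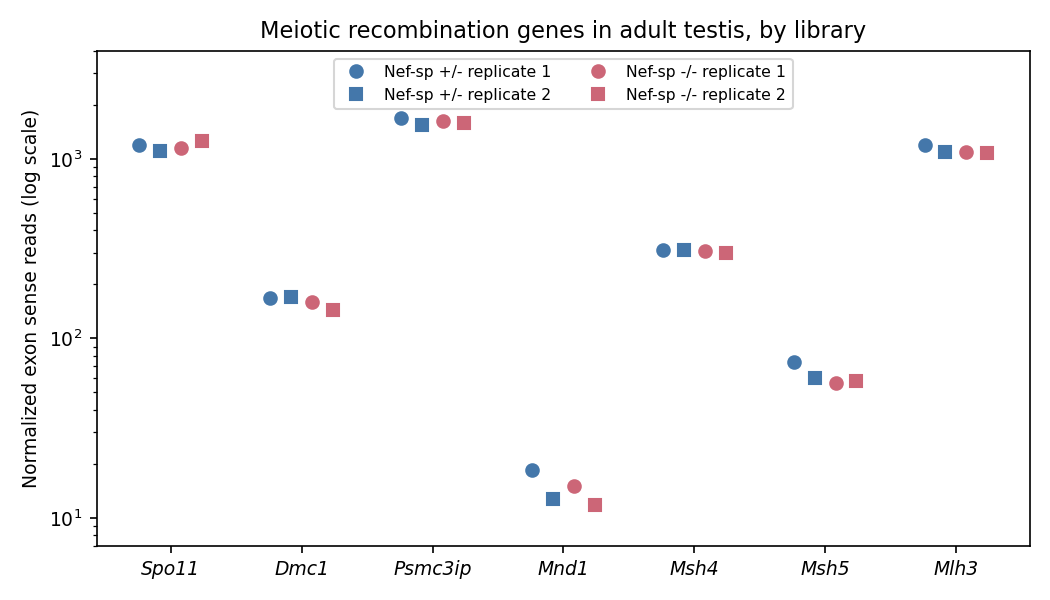
Normalized exon sense reads of the 7 genes (log axis) in each of the 4 libraries, with Nef-sp +/- in blue and Nef-sp -/- in red, replicate 1 as circles and replicate 2 as squares. The genotypes lie close together for each gene, and Mnd1, at 11.8 to 18.4 reads, has the widest relative spread.

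Spo11 (ENSMUSG00000005883, chr2:172803201-172819077, plus strand) encodes the catalytic subunit of the enzyme that makes meiotic breaks. Its raw exon sense counts were 1037 and 1566 in the Nef-sp +/- controls and 995 and 1061 in Nef-sp -/-. After normalization for library size, these were 1193 and 1103 against 1149 and 1255. The genotypes overlapped, and their libraries alternated in rank. The log2 fold change was 0.07 (standard error 0.0721, 95% interval −0.09 to 0.23, adjusted p = 0.956 from edgeR). The interval corresponds to 0.94-fold to 1.17-fold.

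Dmc1 (ENSMUSG00000022429, chr15:79391930-79435529, minus strand) encodes the recombinase that coats the single strands at the breaks. Its raw counts were 146 and 241 in the Nef-sp +/- controls and 138 and 122 in Nef-sp -/-. The normalized counts were 168.0 and 169.7 against 159.4 and 144.4, so both Nef-sp -/- libraries were below both controls. The replicates of Nef-sp -/- differed from each other by 0.14 on the log2 scale, and counting alone gives an SD of 0.18. The log2 fold change was −0.15 (standard error 0.12, 95% interval −0.42 to 0.11, adjusted p = 0.954 from edgeR), and this gene had the smallest unadjusted p of the 7, 0.226 in the same edgeR fit.

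Psmc3ip (ENSMUSG00000019303, chr11:100953137-100956750, minus strand) encodes HOP2, which stabilizes the DMC1 filament. With 1474 and 2189 raw reads in the Nef-sp +/- controls and 1400 and 1346 in Nef-sp -/-, it was the most deeply counted of the genes. The normalized counts were 1696 and 1541 against 1617 and 1593, and both values of Nef-sp -/- fell between those of the controls. On the log2 scale the fold change was −0.01 (standard error 0.0669, 95% interval −0.16 to 0.14, adjusted p = 0.991 from edgeR). Psmc3ip shares 385 bp of exon with Mlx, a transcription factor gene on the opposite strand. The libraries keep strand, and reads antisense to Mlx exons numbered 15 and 19 in the Nef-sp +/- controls and 14 and 10 in Nef-sp -/-.

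Mnd1, the partner of Psmc3ip described above, had the fewest reads. Its raw counts were 16 and 18 in the Nef-sp +/- controls and 13 and 10 in Nef-sp -/-, or 57 in all. The normalized counts were 18.4 and 12.7 against 15.01 and 11.8, and the genotypes overlapped. The control replicates differed by 0.54 on the log2 scale, where counting alone gives an SD of 0.50. The estimate for the log2 fold change was −0.15 (standard error 0.37, 95% interval −0.96 to 0.67, adjusted p = 0.986 from edgeR), so that a decrease to 0.513-fold and an increase to 1.59-fold both lay within the interval. Without Nef-sp +/- replicate 1 the value was 0.08, and without Nef-sp -/- replicate 2 it was 0.01.

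Msh4 (ENSMUSG00000005493, chr3:153520111-153569102, minus strand) encodes a subunit of the MutS-type clamp of meiosis, a relative of mismatch repair proteins. The raw counts were 269 and 442 in the Nef-sp +/- controls and 266 and 253 in Nef-sp -/-. After normalization they were 309.6 and 311.3 against 307.2 and 299.4. Although the genotypes did not overlap, the gap between the nearest libraries was smaller than the distance between the Nef-sp -/- replicates. On the log2 scale this was −0.03 (standard error 0.0891, 95% interval −0.23 to 0.16, adjusted p = 0.986 from edgeR).

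Msh5 (ENSMUSG00000007035, chr17:35165550-35183690, minus strand) encodes the other subunit of the clamp. It had 64 and 85 raw reads in the Nef-sp +/- controls and 49 in each Nef-sp -/- library. The normalized counts were 73.7 and 59.9 against 56.6 and 58.0, again without overlap. The control replicates differed by 0.30 on the log2 scale, more than the nearest control and Nef-sp -/- libraries did. Its log2 fold change was −0.19 (standard error 0.189, 95% interval −0.61 to 0.23, adjusted p = 0.956 from edgeR). The value was −0.06 without Nef-sp +/- replicate 1 and −0.36 without Nef-sp +/- replicate 2.

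Mlh3 (ENSMUSG00000021245, chr12:86575479-86611541, minus strand) encodes an endonuclease subunit of the MutL type. Its raw counts were 1035 and 1545 in the Nef-sp +/- controls and 949 and 911 in Nef-sp -/-. The normalized counts were 1191 and 1088 against 1096 and 1078, with 1 of the Nef-sp -/- libraries between the controls and the other below them. Its log2 fold change was −0.06 (standard error 0.0689, 95% interval −0.22 to 0.09, adjusted p = 0.956 from edgeR).

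**Figure D3:**
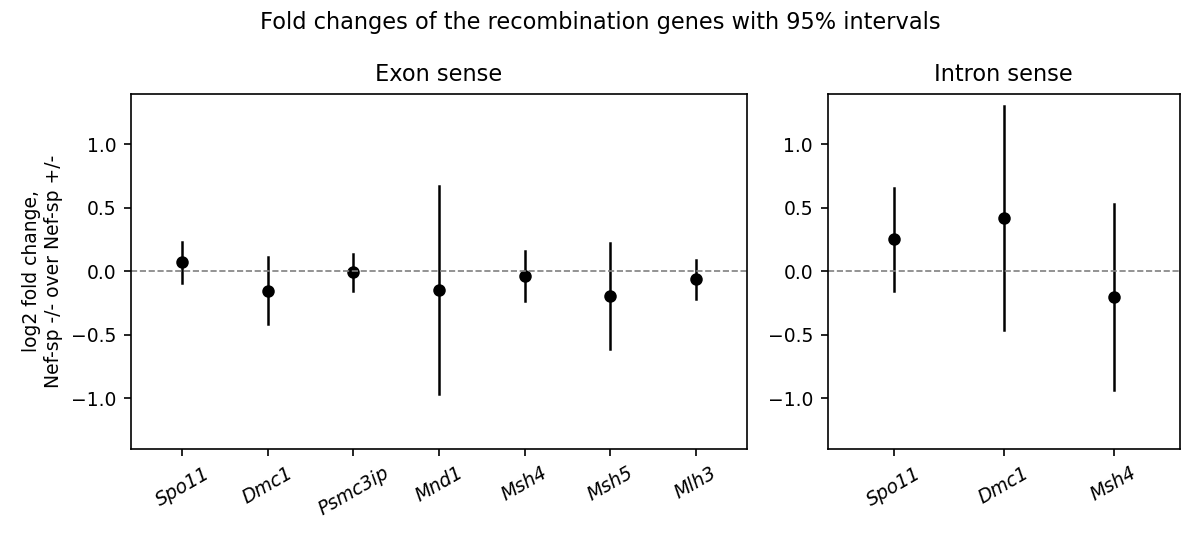
Log2 fold changes of Nef-sp -/- over Nef-sp +/- (points) with 95% intervals (lines) for exon sense reads of 7 genes and intron sense reads of 3 genes. Each interval includes 0, and the exon sense intervals are narrowest for Psmc3ip (−0.16 to 0.14) and widest for Mnd1 (−0.96 to 0.67).

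The level of each gene was then compared per length, as RPKM, which here means reads scaled to the effective exon sense total of the library and to kilobases of annotated exon. Over the 4 libraries, Psmc3ip was the highest at 47.6 ± 1.91 (SD, n = 4) and stood at percentile 86.5 of 11414 genes with a length. Spo11 followed at 16.1 ± 0.891 (percentile 70.8) and Mlh3 at 10.8 ± 0.508 (percentile 63.9). Msh4 at 4.02 ± 0.069 and Dmc1 at 3.90 ± 0.282 did not differ in order beyond their spread, since Dmc1 ranged from 3.51 to 4.13 and Msh4 from 3.92 to 4.08. Mnd1 at 0.890 ± 0.181 and Msh5 at 0.603 ± 0.0765 were the lowest, at percentiles 27.3 and 23.6.

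The choice of length mattered for genes with many annotated exons. With the length of the longest coding transcript in place of that of all annotated exons, Spo11 was at 36.9 and Msh5 at 1.15 RPKM. Only the length was changed, so the counts may still hold reads of exons outside that transcript. The order of Mnd1 and Msh5 then turned, with Mnd1 at 0.890 and Msh5 at 1.15. The order of the first 5 genes was the same on both lengths.

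**Figure D4:**
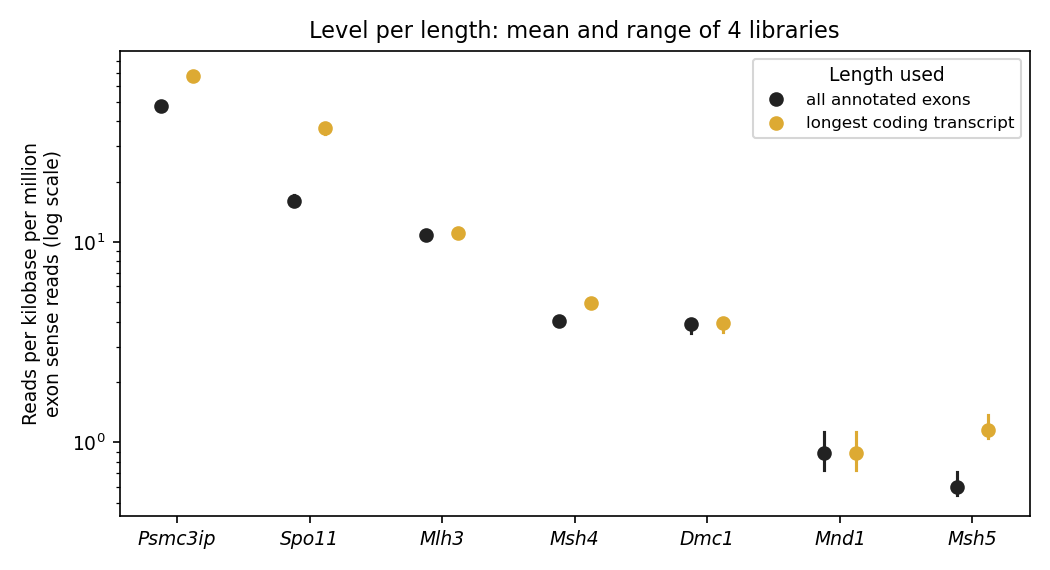
Mean (points) and range over 4 libraries (lines) of the level per length in RPKM, on a log axis, with the length of all annotated exons in black and of the longest coding transcript in yellow. Psmc3ip is the highest on both lengths (47.6 and 67.0), and Mnd1 and Msh5 change places at the lower end.

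Partners in the same complex were thus counted at unequal levels per length. PSMC3IP and MND1 act as a heterodimer, yet the level of Psmc3ip was 44.3 to 64.7 times that of Mnd1 across the libraries. With the lengths of the coding transcripts this ratio was 62.4 to 91.1. The values for Mnd1 rest on 57 reads and on a gene for which 37.7% of exonic windows had a second match, and the part of either in the ratio was not tested. Msh4 was 5.67 to 7.32 times the level of its partner Msh5, or 3.65 to 4.71 times with the lengths of the coding transcripts. In both pairs, the ranges of the partners over the libraries did not overlap.

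Intron sense reads, which can come from unspliced transcripts, from retained introns or from annotation that lacks an exon, were few. Spo11 had 110 and 130 in the Nef-sp +/- controls and 91 and 135 in Nef-sp -/-. Its normalized values were 123.3 and 95.7 against 108.4 and 148.5, so the genotypes overlapped. Dmc1 had 10 and 14 raw reads in the Nef-sp +/- controls and 14 and 11 in Nef-sp -/-. Msh4 had 17 and 26 in the Nef-sp +/- controls and 13 and 16 in Nef-sp -/-.

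These 3 genes passed the expression filter of edgeR, and 0 of 3 were called, beside 0.0294% of 3403 intron sense genes. An unadjusted p below 0.05 in edgeR was seen for 0 of 3, beside 80 of the 3403 genes, and DESeq2 called 0 of 3. The log2 fold changes were 0.25 for Spo11 (95% interval −0.15 to 0.66), 0.42 for Dmc1 (−0.46 to 1.30) and −0.20 for Msh4 (−0.93 to 0.53), and the smallest Benjamini-Hochberg adjusted p of the 3 in edgeR was 0.9996. With 1 library left out, Spo11 ranged from 0.0051 (without Nef-sp -/- replicate 2) to 0.45 (without Nef-sp -/- replicate 1). Dmc1 ranged from 0.17 (without Nef-sp -/- replicate 1) to 0.64 (without Nef-sp -/- replicate 2), and Msh4 from −0.30 (without Nef-sp -/- replicate 2) to −0.13 (without Nef-sp -/- replicate 1). Psmc3ip, Mlh3 and Msh5 had 26, 36 and 6 intron sense reads in all and were not tested.

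The share of intron reads among the exon and intron sense reads of a gene does not depend on the scaling of the libraries. For Spo11 it was 9.59% and 7.67% in the Nef-sp +/- controls and 8.38% and 11.3% in Nef-sp -/-. Their Wilson intervals at 95%, which cover counting error only, reached from 6.49% to 13.2% over the 4 libraries. For Dmc1 it was 6.41% and 5.49% in the Nef-sp +/- controls and 9.21% and 8.27% in Nef-sp -/-, without overlap. For Dmc1, an exact permutation test (two-sided) gave p = 0.333, the smallest that 2 libraries against 2 allow, and 0.667 after Benjamini-Hochberg adjustment over the 6 genes. Msh5 and Mlh3 also had higher shares in both Nef-sp -/- libraries, with the same exact p, on 6 and 36 intron reads. These 3 of 6 genes stand beside 16.8% of 6434 genes with a share in every library, and no test was made on this count. Over all libraries, the share was 9.09% for Spo11, 7.04% for Dmc1, 5.53% for Msh4, 2.37% for Msh5, 0.804% for Mlh3 and 0.404% for Psmc3ip. The median of 6441 genes listed in both categories was 1.498%. The share is not scaled to intron length, which differs between genes. Reads per kilobase of intron were therefore also taken as a percentage of reads per kilobase of exon. This percentage was 3.28% for Spo11, 1.06% for Msh5, 0.534% for Msh4, 0.411% for Psmc3ip, 0.404% for Dmc1 and 0.147% for Mlh3. Of reads counted antisense to the recombination genes themselves, those of Msh4 introns were examined, and the libraries held 1, 1, 1 and 2.

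The other genes of the pathway were examined in 4 lists of 61 genes, of which 43 were examined and 41 passed the expression filter of the same exon sense fit. By edgeR, 0 of 41 were called and 0 had an unadjusted p below 0.05, beside 4.8% of all genes tested. A log2 fold change below 0 was seen in 22 of the 41, and the median of the 41 was −0.00. The range ran from −0.37 to 0.24, with genes of few reads, Rad54l and Pms1, at its ends.

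Genes of break formation and its control had 6 tested members and a median of −0.01. The lowest was Hormad2, which encodes a protein of the chromosome axis, at −0.14 (standard error 0.122), and the next was Trip13, whose ATPase removes such proteins, at −0.08 (standard error 0.138). The highest were Atm, the kinase that limits break numbers, at 0.10 (standard error 0.11) and Hormad1, another axis gene, at 0.01 (standard error 0.0781). Hormad1 was abundant, at normalized levels of 3155 and 2851 reads in the Nef-sp +/- controls and 2805 and 3226 in Nef-sp -/-.

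Break processing and strand exchange had 19 tested genes and a median of 0.01. In 6 of them both Nef-sp -/- libraries were below both controls, and in 4 they were above, beside 18.1% and 16.4% of all genes tested. Rad54l, which encodes a DNA translocase of strand exchange, had 39.1 and 33.1 normalized counts in the Nef-sp +/- controls and 25.4 and 29.6 in Nef-sp -/-, or −0.37 as log2 fold change (standard error 0.248). E130016E03Rik, which is matched to Rad54b by the synonyms of RefSeq, was at −0.22 (standard error 0.125). At the other end were Rad51c, a recombination gene, at 0.09 (standard error 0.0902) and Rpa1, which encodes the large subunit of the single-strand binding complex, at 0.07 (standard error 0.0573).

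Crossover formation and the resolution of intermediates had 11 tested genes and a median of −0.00. The helicase gene Mcm8 had a log2 fold change of −0.20 (standard error 0.203), with 96.7 and 85.9 normalized counts in the Nef-sp +/- controls and 61.2 and 95.8 in Nef-sp -/-. One Nef-sp -/- library was thus low and the other within the controls. Eme1, the partner of the nuclease gene Mus81, was at −0.19 (standard error 0.34) and Mus81 at 0.03 (standard error 0.0949). Tex11, an X-linked gene needed for crossover formation, was the highest at 0.14 (standard error 0.123).

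The mismatch repair relatives of Msh4, Msh5 and Mlh3 had 5 tested members and a median of −0.00. Pms1, a MutL-type relative of Mlh3, was the highest at 0.24 (standard error 0.261), and 3 of its 4 libraries lay between 41.4 and 41.6 while Nef-sp +/- replicate 1 was at 25.3. Msh3 and Msh6, of the MutS type, were both at −0.01.

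**Figure D5:**
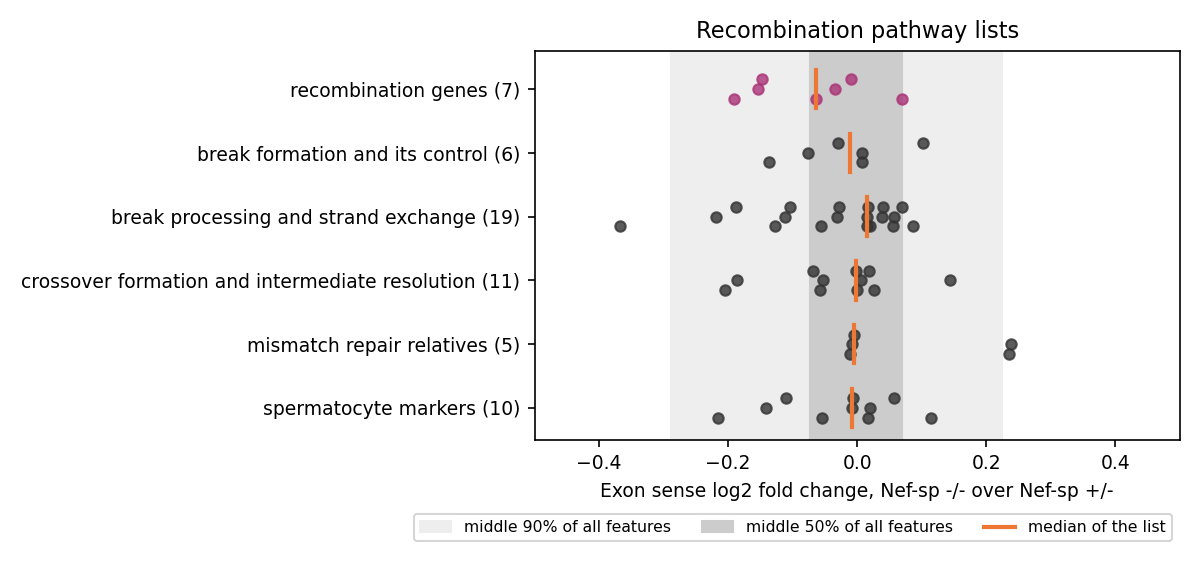
Exon sense log2 fold changes of the 7 recombination genes, of 4 further pathway lists and of 10 spermatocyte markers, with 1 point per gene and an orange line at the list median. The darker band spans the quartiles of all 10728 genes (−0.07 to 0.07) and the lighter band their 0.05 to 0.95 quantiles (−0.29 to 0.22), and the list medians all lie within the darker band.

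The recombination genes were also set beside the spermatocyte markers, although the cell type that their reads came from was not tested. The summed level of the 7 genes was 230.1 to 249.7 CPM in the Nef-sp +/- controls and 236.2 to 238.3 in Nef-sp -/-. Per 100 reads of the spermatocyte markers, the 7 genes had 8.17 and 7.82 reads in the Nef-sp +/- controls and 8.10 and 7.84 in Nef-sp -/-. Both Nef-sp -/- values lay between the control values. The sum rests mainly on Psmc3ip, Spo11 and Mlh3, with 6409, 4659 and 4440 raw exon sense reads over the libraries. Dmc1, Msh4 and Msh5, which were lower in both Nef-sp -/- libraries, had 647, 1230 and 247. Among 10 spermatocyte markers, which include genes of the synaptonemal complex, edgeR called 0, and 1 had an unadjusted p below 0.05, beside 4.8% of all genes tested. It was Rec8, a meiotic cohesin gene named here after its value was seen, with a log2 fold change of −0.22 (95% interval −0.37 to −0.06).

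The marker sums of other cell types differed in direction. Spermatid markers, all 10 of which had reads, summed to 22122 and 27364 CPM in the Nef-sp +/- controls and 27858 and 27160 in Nef-sp -/-, with overlap. Of these 10, 8 had log2 fold changes above 0. By edgeR 0 were called, and 2 had an unadjusted p below 0.05, beside 4.8% of all genes tested. Leydig cell markers (6 of 6) summed to 940.3 and 933.4 against 889.3 and 749.4, and those of peritubular and smooth muscle cells (4 of 4) to 75.9 and 74.0 against 66.0 and 72.5, lower in both Nef-sp -/- libraries. Among the Leydig cell markers, 2 steroid synthesis genes had log2 fold changes below 0, Cyp17a1 at −0.27 and Cyp11a1 at −0.35, and the other 4 were above 0, so the list had a median of 0.09. Spermatogonia markers (8 of 8) summed to 337.9 and 332.5 against 339.2 and 365.2, higher in both. Of the 7 that passed the expression filter, 0 were higher in both taken singly, and 2 had log2 fold changes below 0. Sertoli cell markers (6 of 8) summed to 183.1 and 187.9 against 178.7 and 194.1, and macrophage markers (4 of 4) to 4.51 and 5.18 against 4.90 and 4.64, both with overlap. Fshr among the Sertoli cell markers and Cd14 among the macrophage markers had no reads in 1 library. The part of these differences in the values of the recombination genes was not tested.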

How the data were processed

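Strand-specific total RNA libraries of testis were read for 50 cycles. The authors mapped reads to mm9, kept perfect matches and deposited raw counts per feature, annotation category and strand. A feature was listed from 5 reads upward, summed over libraries. Their mean normalized signal, fold changes and p-values of DESeq2 were not used. Groups were taken from the labels.

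Counts of each category were fitted with edgeR 4.0.16 in R 4.3.3 (TMM, quasi-likelihood test, expression filter with a minimum count of 10, no covariates), with Benjamini-Hochberg adjustment over the category. Normalized counts are counts divided by the relative effective library size. Standard errors and intervals were derived from the log2 fold change and the F statistic of the quasi-likelihood test, with t quantiles, and are approximate. Loci and lengths were from GENCODE vM1, and windows were searched on both strands of mm9. Lists were matched by symbol, 3 of their genes through synonyms.

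The recombination genes, the lists and the tests were chosen with earlier results of these data known. Named are all 8 genes, the targeted gene and, in each pathway list, the 2 lowest and the 2 highest log2 fold changes, of which 1 gene is not reported here. Alternatives were size factors of DESeq2 1.42.0, library size over all categories, 2 other expression filters, DESeq2, a replicate block and each library left out. A crossed block and coding transcript lengths were added after seeing the data.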

Additional observations from a re-analysis of the deposited data

How the results depend on the processing

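No recombination gene was called under any alternative, in exon or intron sense reads. With all libraries, each gene kept the sign of its log2 fold change in every alternative run. The median log2 fold change of the 7 genes, −0.06, was −0.088 with library size over all categories, a scaling that put the median of all genes at −0.02. With a library left out it ranged from −0.13 to −0.0006. Signs turned in 4 of 28 exon sense values: without Nef-sp +/- replicate 1, Psmc3ip was at 0.059 and Mnd1 at 0.085, and without Nef-sp -/- replicate 2 they were at 0.0048 and 0.015. The other 5 genes kept their sign, with ranges of 0.0082 to 0.13 for Spo11, −0.23 to −0.081 for Dmc1, −0.053 to −0.012 for Msh4, −0.36 to −0.063 for Msh5 and −0.13 to −0.0006 for Mlh3. Over the libraries left out, Psmc3ip ranged from −0.080 to 0.059 and Mnd1 from −0.45 to 0.085. The number of all exon sense genes called, 1 here, was 2 with DESeq2 and ranged from 1 to 252 with a library left out. It was 252 without Nef-sp +/- replicate 2 and 41 without Nef-sp +/- replicate 1, each leaving a lone control assumed to vary like the other group. The fits without either Nef-sp -/- library also leave a lone library in a group, and both stood at the low end of that range. Whether a lone library accounts for the exon sense counts was not tested. Intron sense genes called, 1 here, numbered 0 with library size over all categories and 0 with no expression filter.

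The labels give replicate numbers but no shared litter or day. Libraries with the same number had deviations correlated by −0.08 over exon sense and −0.14 over intron sense genes. With the replicate block, the median of the recombination genes was −0.07, 0 of 7 were called and 1 exon sense gene was called in all. With the numbers crossed, 2 intron sense genes were called and 0 of 3 recombination genes.

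Depth limits Mnd1, Msh5 and the intron reads most. The 95% interval of Mnd1 includes a change to 0.513-fold or 1.59-fold, whereas that of Psmc3ip spans 0.897-fold to 1.10-fold. Levels per length depend on the annotated exons, and reads with several matches bear on Mnd1. The cause of the changes without single libraries was not tested.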
